A study of Mus musculus with 21 samples.

Results

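Genes of the proteasome were followed through 7 groups of sorted mouse monocytes and macrophages, measured on 21 Affymetrix expression arrays, 3 for each group. A gene belonged to the set when its symbol was Psm, a letter from a to g and a number, and when it had a probe set assigned to it alone. The probe set with the highest mean over the 21 arrays stood for a gene with several. The rule found 49 of 18194 genes. A signal above 80.6, the median of the whole table, in at least 3 arrays was needed for testing, and 48 of the 49 were among the 12169 genes tested. The exception was Psmb11, a subunit known from the thymus, whose highest value on any array was 36.1. Psmc3ip, which encodes a protein of meiotic recombination, and Psme3ip1 met the rule by symbol and are no proteasome subunits. They are given apart, and the other 46 are called the proteasome genes here. Psme2 had only a probe set shared with Psme2b and was left out, so the inducible subunits were Psmb8, Psmb9, Psmb10 and Psme1.

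The proteasome is the barrel-shaped protease that degrades proteins marked with ubiquitin. Its 20S core has outer rings of alpha subunits (Psma genes), which gate the entry, and inner rings of beta subunits (Psmb genes), of which Psmb5, Psmb6 and Psmb7 carry the proteolytic sites. The 19S cap has a base of ATPases (Psmc genes) that unfold the substrate and a lid (Psmd genes) that removes its ubiquitin. In immune cells and under interferon gamma, Psmb8, Psmb9 and Psmb10 are known to replace Psmb5, Psmb6 and Psmb7 in newly built cores. The product is the immunoproteasome, which supplies peptides for MHC class I, and the PA28 activator built from Psme1 and Psme2 can cap it.

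Every mouse was a female C57BL/6 animal aged 7 to 8 weeks. Peritonitis was started by an injection of 20000000 particles of zymosan, a yeast cell wall preparation, into the peritoneal cavity. The inflammatory groups were Ly-6B+, Ly-6G- monocytes at 4 h, Ly-6B+/low, Ly-6G- monocytes and macrophages at 18 h, and F4/80+, CD11b+ macrophages at 72 h. At 168 h the F4/80(med-high), Ly-6B+ and the F4/80(high), Ly-6B- macrophages were sorted apart. The 2 reference groups came from naive mice: monocytes of the bone marrow, Ly-6B+Ly-6G-, and resident peritoneal macrophages, F4/80(high), CD11b(high). The sort gate thus changed with time, and the labels do not say whether cells of several mice were pooled. The replicates are labelled biological.

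All 8 macrophage or monocyte markers had group means above the table median in each peritoneal group, and 7 of 8 in bone marrow. The summed signal of 6 markers of resident peritoneal macrophages, among them Timd4 and Gata6, lay between 5979 and 7710 at 18 h and between 85693 and 103654 at 72 h. Of 8 neutrophil markers 7 were measured, and their sum lay between 68264 and 216231 in the bone marrow group, while no array of another group exceeded 4157. The sum of 6 measured B cell markers was highest in the bone marrow group, between 10952 and 16199. It lay between 2624 and 3734 at 4 h, between 4985 and 5970 at 18 h and between 494 and 1108 in resident macrophages. Among the 72 h arrays it ran from 861 to 11753, with replicate 2 highest in Cd79a (966 against 78.2 and 89.7). The sum of 7 measured mast cell or eosinophil markers ran from 264 to 4687 at 72 h and reached at most 637 at 18 h. That of 7 dendritic cell markers lay between 1831 and 2359 at 4 h and between 653 and 809 in bone marrow. The 3'/5' signal ratio of Gapdh, a sign of RNA quality, lay between 1.64 and 2.12 at 18 h and between 1.98 and 2.46 at 72 h. Array medians ran from 67.3 to 93.0.

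The proteasome genes were highest early in the inflammation and lowest in mature macrophages. Of the 46 genes, 35 had their highest group mean at 4 h or 18 h, as did 31% of all genes tested. Of the 46, 38 had their lowest mean at 72 h, at 168 h or in resident macrophages, against 34.9% of all genes. The range was small. The highest group mean was a median of 1.57 times the lowest, against 2.14 times over all genes. Signals were compared as log2(signal + 15) with limma in 1 fit of all 21 arrays, and p-values were adjusted over all genes by the Benjamini-Hochberg method, with 0.05 as the limit for a call. The F test over the 7 groups called 31 of the 46 genes, or 32 of all 48 that met the rule, where 69.8% of all genes were called. The share of proteasome genes that varied over the groups was thus near that of all genes. Psmb8, Psmb9, Psmb10 and Psme1 were not called in the F test (adjusted p = 0.62, 0.43, 0.12 and 0.10). Of the constitutive subunits, Psmb5 and Psmb6 were called (0.00012 and 0.00059), and Psmb7 was not (0.10).

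**Figure D1:**
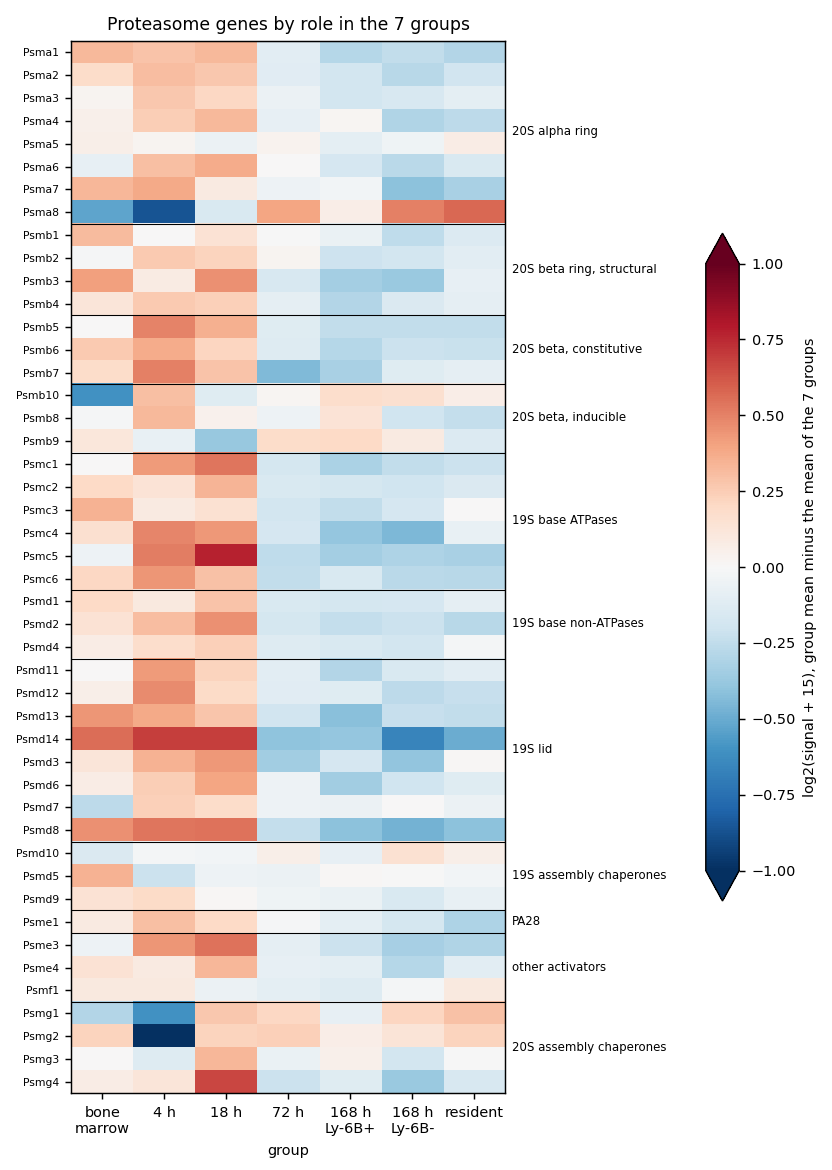
The rows are the 46 proteasome genes ordered by role, the columns the 7 groups, and the colour is the group mean of log2(signal + 15) minus the mean of the 7 groups (colours end at 1 above and 1 below). Most rows are red at 4 h and 18 h and blue from 72 h on. Psma8, Psmb9, Psmb10, Psmd5, Psmg1 and Psmg2 are among those with another order.

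Counts of called genes differed between the 6 comparisons. At 4 h against bone marrow, 9 proteasome genes were higher and 3 lower, where 16.5% of all genes were called higher and 30.1% lower. At 18 h against 4 h, 5 were higher and 1 lower, with 27.5% and 12.5% of all genes. At 72 h against 18 h, none was higher and 24 were lower, with 17.5% and 13% of all genes; in 25 of the 46 every 72 h array was below every 18 h array, as in 18.3% of all genes. Resident macrophages against bone marrow gave 2 higher and 16 lower, with 25.3% and 22.2%. The 168 h Ly-6B+ macrophages set against the Ly-6B- ones gave 0 calls, where 3.55% of all genes were higher and 4.61% lower. The 168 h Ly-6B- macrophages against resident ones also gave 0, where 0.0411% were higher and 0.00822% lower. With all arrays set to a common median the split at 4 h became 27 higher and 1 lower, and at 18 h 2 higher and 8 lower, while quantile normalization gave 5 higher and 0 lower at 18 h. Over all genes the shares under the common median were 31.4% higher and 18.1% lower at 4 h and 16% and 24.1% at 18 h, and under quantile normalization 19.8% and 16.1% at 18 h. The common median moved the median change of all genes at 4 h from -0.14 to 0.23 and at 18 h from 0.14 to -0.16, so the balance of higher and lower calls at 18 h turned over with that scaling. At 72 h the common median gave 0 higher and 29 lower, with 14.2% and 18.3% of all genes. Each comparison shares a group with the next, so their values are set side by side and not combined.

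**Figure D2:**
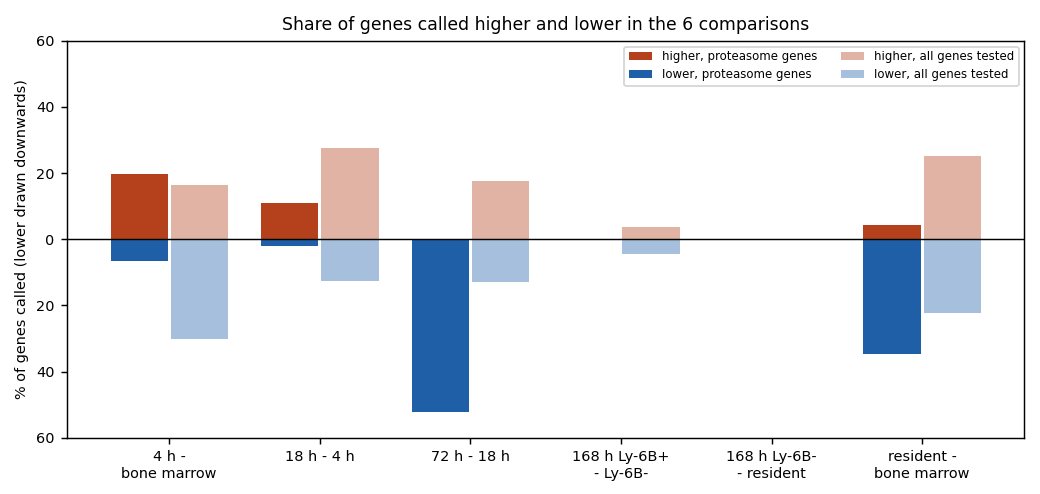
For each of the 6 comparisons, bars above 0 give the percentage of genes called higher and bars below 0 the percentage called lower, in full colour for the 46 proteasome genes and in pale colour for all 12169 genes tested. The proteasome bars exceed the pale ones most in the lower direction at 72 h against 18 h, where 24 of 46 genes were called.

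Between 18 h and 72 h, the step at which the sort changed from Ly-6B and Ly-6G to F4/80 and CD11b, signals of most genes of the proteasome cap fell. Of the 17 subunits of the 19S base and lid, 15 were called lower at 72 h and none higher (13% and 17.5% of all genes). The 15 became 9 with the probe sets of a gene averaged and 11 with only the 6 arrays compared (11.3% and 10.4% of all genes). All 6 ATPases of the base (Psmc1 to Psmc6) fell, with log2 changes from -1.02 to -0.33. Psmd1 and Psmd2, the base scaffolds that bind ubiquitin receptors, fell, and 7 of 8 lid subunits did. The base and lid had a median log2 change of -0.49, and all genes tested had one of 0.03. Psmd4, a ubiquitin receptor, and Psmd7, the lid partner of Psmd14, were not called, at -0.37 ± 0.17 and -0.23 ± 0.22 (log2 change ± SE).

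Psmd14, the deubiquitinase of the lid that cuts the ubiquitin chain from a substrate, had the largest fall. Its signal was 10494, 10920 and 9764 on the 18 h arrays and 4731, 6065 and 3951 on the 72 h arrays. The 3 arrays at 72 h were all below the 3 at 18 h. The log2 change was -1.10 ± 0.12 (SE), a fold of 0.467, with an adjusted p of 9.1e-07. Bone marrow monocytes gave 8665, 9436 and 10345 for Psmd14 and resident macrophages 4346, 4732 and 4565. These groups did not overlap either (log2 change -1.05 ± 0.12, adjusted p = 5.4e-07). The group means at 168 h were 4898 ± 409 for the Ly-6B+ sort and 4067 ± 404 for the Ly-6B- sort (SD, n = 3), so Psmd14 had a high level in 3 groups and a low one in 4.

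Psmc5, an ATPase of the base, rose and then fell. It read 1519, 1537 and 1298 in bone marrow, 2229, 2350 and 1898 at 4 h, 2652, 2704 and 2364 at 18 h and 1225, 1403 and 1157 at 72 h. The 18 h arrays were above every array of the other groups named. The rise at 4 h was 0.57 ± 0.17 (adjusted p = 0.0078), and the fall at 72 h -1.02 ± 0.17 (adjusted p = 7.2e-05). In 1 further fit 3 arrays were left out together, replicate 3 of bone marrow and replicate 2 of the 4 h and of the 72 h group. In that fit the rise at 4 h was 0.42 (adjusted p = 0.12). Psmd8, a lid subunit, fell from 3515, 3979 and 4026 at 18 h to 1977, 2496 and 2219 at 72 h (-0.78 ± 0.17, adjusted p = 0.0014), with no overlap. Psmd2 fell by 0.63, Psmc1 by 0.71 and Psmd3, a lid subunit, by 0.78 on the log2 scale.

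The promoter of Psmd14, the gene of the largest fall, is shown from RefSeq on mouse build GRCm38.p6, chr2:61711444-61711743, plus strand, 250 bases before to 50 bases after the start. Capitals mark CCAAT on either strand, the box bound by NF-Y, at -159 to -155, 5 to 9 and 8 to 12 from the first base of the gene, the last pair overlapping. Of 41 windows of 39 genes, Psmb11 among them, 14 held CCAAT, that of Psmb11 included, and 37.4% of the 32851 windows of all genes did.
Psmd14: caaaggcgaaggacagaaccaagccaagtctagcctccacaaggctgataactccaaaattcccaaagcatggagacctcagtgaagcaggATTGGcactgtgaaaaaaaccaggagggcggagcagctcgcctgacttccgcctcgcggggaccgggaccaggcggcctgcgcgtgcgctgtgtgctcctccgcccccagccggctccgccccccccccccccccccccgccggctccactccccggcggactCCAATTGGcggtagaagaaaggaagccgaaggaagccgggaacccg
A match of letters describes the window and does not show that a factor binds there.

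Of the 15 genes of the 20S core, the inducible subunits left aside, 6 were lower at 72 h and none higher (13% and 17.5% of all genes). The 6 were Psma1, Psma2, Psma3 and Psma6 of the alpha ring, the structural subunit Psmb3, and the catalytic Psmb5. Psmb3 fell from 9780, 6815 and 10999 at 18 h to 6183, 5165 and 6282 at 72 h (-0.62 ± 0.13, adjusted p = 0.0011). Replicate 2 was the lowest array in both groups, and the groups did not overlap. The counts of cap and core genes were not tested against each other. The activators Psme3 and Psme4 were lower at 72 h, by 0.63 and 0.41 on the log2 scale. A further Psme3 probe set above the filter had a change of 0.10, untested. Those of Psme4 gave -0.51, -0.48, -0.40, -0.37 and 0.15. The inhibitor Psmf1 was not called with the probe set that stood for it (-0.04 ± 0.14). The remaining Psmf1 probe sets had higher means at 72 h, by 0.41, 0.61 and 0.35, untested. The 3 chaperones that assemble the 19S base, Psmd5, Psmd9 and Psmd10, were not called, at -0.01, -0.05 and 0.09.

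**Figure D3:**
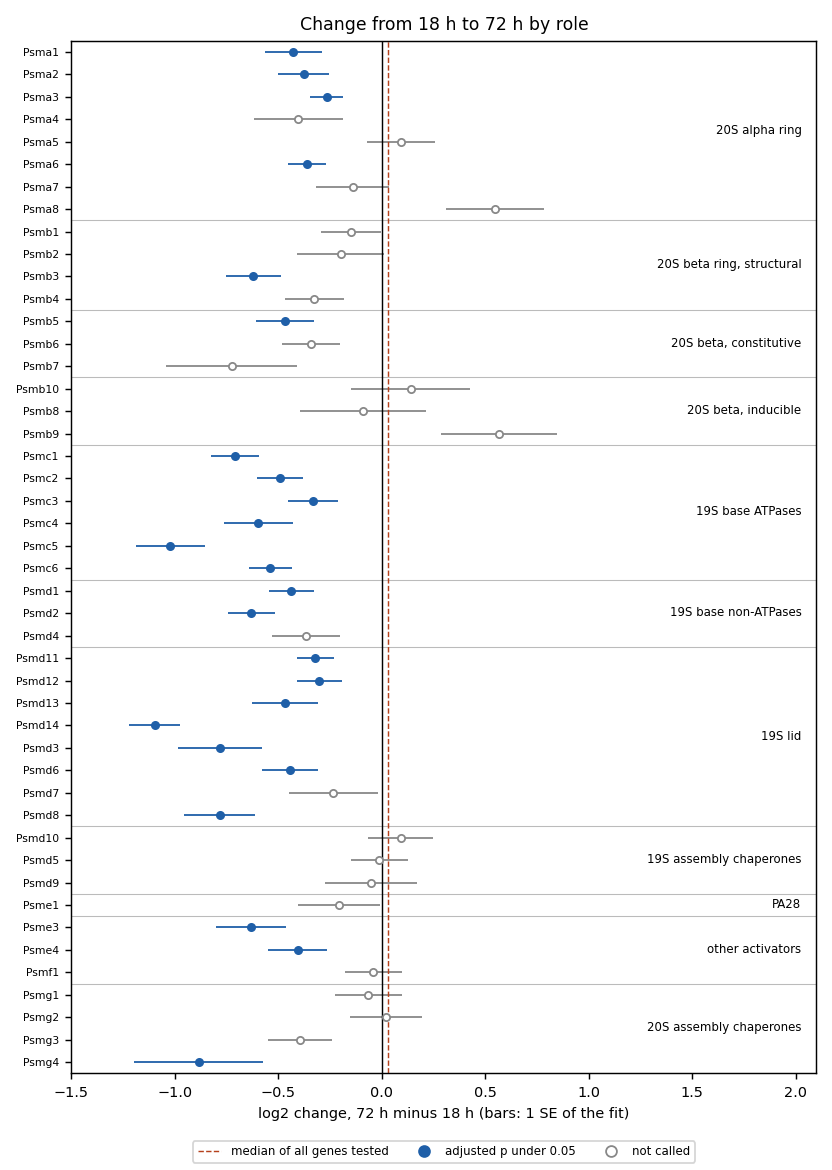
Each row is 1 proteasome gene, ordered by role, with its log2 change from 18 h to 72 h on the horizontal axis and 1 standard error of the fit as the bar; filled points were called. All 17 genes of the 19S base and lid lie left of 0, Psmd14 farthest at -1.10, while the 6 genes to the right of 0, with Psmb9 farthest at 0.57, were not called.

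Other probe sets of these genes mostly moved the same way at 72 h. Of the members called lower, 12 had further probe sets above the filter, 26 in all, and 20 of these had a lower mean, untested, at 72 h. Averaging all probe sets of a gene left 12 genes called lower of the 46, 9 of them in the base and lid, with 11.3% of all genes. A fit of the 6 arrays alone left 15 and 11, with 10.4%. Leaving out replicate 1 of the 18 h group lowered the count over all 48 members from 24 to 14, and 11 of the 24 were called in each of the 6 fits without 1 array: Psma6, Psmb3, Psmc1, Psmc2, Psmc4, Psmc5, Psmc6, Psmd1, Psmd2, Psmd8 and Psmd14. Resident macrophage markers were higher at the same step, as given above. The B cell sums of the 72 h arrays reached both below and above the 18 h range. Mast cell or eosinophil markers were high on some 72 h arrays. The part of these cell types in the fall was not tested. In such bulk samples fewer cells of a type and less RNA per cell cannot be told apart.

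In monocytes recruited within 4 h, the catalytic subunits Psmb5 and Psmb10 were higher than in bone marrow, with the ATPases Psmc1 and Psmc5, the lid subunits Psmd11 and Psmd12, Psma3, Psma6 and Psme3. Of the 12 calls at this step, 8 were kept in each of the 6 fits without 1 array, and Psma3, Psmb3, Psmb10 and Psme3 were not. Dendritic cell markers were higher at 4 h, and neutrophil and B cell markers were higher in bone marrow, as given above. The part of these cell types was not tested. For Psmb5 the bone marrow arrays gave 5156, 5236 and 5320 and the 4 h arrays 6385, 7517 and 8459. The groups did not overlap, and the change was 0.50 ± 0.14 (fold 1.41, adjusted p = 0.0055). At 72 h Psmb5 was back at 4536, 4894 and 5060, below 6733, 5904 and 7522 at 18 h (-0.47 ± 0.14, adjusted p = 0.014). That call was lost without replicate 3 at 18 h (adjusted p = 0.072) or replicate 1 at 72 h (adjusted p = 0.0501).

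Psmb10, the trypsin-like subunit of the immunoproteasome, had the largest rise at 4 h. The bone marrow arrays gave 2802, 3634 and 2553 and the 4 h arrays 4574, 5936 and 6352, without overlap. The change was 0.91 ± 0.29 (fold 1.87, adjusted p = 0.013). Without bone marrow replicate 3 the adjusted p was 0.054, without 4 h replicate 3 it was 0.052, and with the 3 arrays named above left out it was 0.12 (change 0.75). Bone marrow replicate 3 also had the highest neutrophil marker signals (S100a8 43246 against 29406 and 21870). In resident macrophages Psmb10 read 3710, 5385 and 5216, all above bone marrow, but the test was not passed (0.67 ± 0.29, adjusted p = 0.064). It was passed without bone marrow replicate 2 (0.81, adjusted p = 0.048) or without resident replicate 1 (0.84, adjusted p = 0.040).

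Of the 4 chaperones that build the 20S core, Psmg1 and Psmg2 had their lowest mean at 4 h, as had 36.3% of all genes. Psmg3 and Psmg4 had their highest mean at 18 h (12.1% of all genes) and lowest in 168 h Ly-6B- macrophages (8.69%). Psmg1 and Psmg2 encode partners of a dimer on which the alpha ring is assembled. Psmg2 read 1008, 874 and 865 in bone marrow, 375, 357 and 331 at 4 h, and 1121, 814 and 830 at 18 h. The 4 h arrays were below every array of the other 6 groups. It fell at 4 h by 1.33 on the log2 scale (SE 0.17, adjusted p = 2.0e-06) and rose again at 18 h (1.33 ± 0.17, adjusted p = 3.7e-06). Psmg1 read 526, 588 and 612 at 4 h and 941, 1222 and 1057 at 18 h (0.88 ± 0.16, adjusted p = 0.00017), again without overlap. At 4 h against bone marrow Psmg1 was not called (-0.32, adjusted p = 0.12). Both changes at 18 h were called in each of the 6 fits without 1 array and under every scaling tried. Psmg3 was higher at 18 h by 0.46 ± 0.15 (adjusted p = 0.022) and was not called in each of those fits.

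Other single genes changed in the early steps. Psmd5, a chaperone of the 19S base, was lower at 4 h (1173 ± 27.7 to 791 ± 55.7, SD, n = 3; -0.56 ± 0.14, adjusted p = 0.0019). With a common array median the change was -0.20 (adjusted p = 0.23), and with quantile normalization -0.31 (adjusted p = 0.064). Psmb3 was called lower at 4 h (-0.33, adjusted p = 0.047) and higher at 18 h (0.38, adjusted p = 0.028), and with a common array median the changes were 0.035 (adjusted p = 0.87) and 0.08 (adjusted p = 0.70). Leaving out either of bone marrow replicates 1 and 2 or of 4 h replicates 1 and 2 ended the first call (adjusted p from 0.093 to 0.17). The second was lost without 4 h replicates 1 or 2 or 18 h replicates 1 or 3 (adjusted p from 0.064 to 0.19). Psmd12 was the only one of the 46 lower at 18 h (-0.28, adjusted p = 0.043), a call lost without any 1 of 4 h replicates 1, 2 and 3 or 18 h replicates 2 and 3 (adjusted p from 0.064 to 0.14). Psmg4, an alpha ring chaperone, was lower at 72 h (-0.89 ± 0.31, adjusted p = 0.035), and without any 1 of the 6 arrays except 72 h replicate 3 the adjusted p ran from 0.052 to 0.15.

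Psma8, an alpha subunit known from testis, lay near the floor of the arrays. Its group means were 71.2 ± 26.3 in bone marrow, 51.8 ± 11.3 at 4 h and 165 ± 6.68 in resident macrophages (SD, n = 3). It was called higher in resident macrophages (1.10 ± 0.24, adjusted p = 0.00061), and the 15 added before the logarithm understates such a change. Its call at 18 h (0.71, adjusted p = 0.020) was lost without 18 h replicate 1, 18 h replicate 2 or 4 h replicate 3 (adjusted p from 0.051 to 0.085), and with a common array median it was 0.42 (adjusted p = 0.15). Psmc3ip, which is no subunit, was lower at 4 h (475 ± 124 to 35.3 ± 6.47; -3.26 ± 0.31, adjusted p = 2.1e-08).

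Between 18 h and 72 h the constitutive subunits had a lower median change than the inducible ones. The median change of Psmb8, Psmb9, Psmb10 and Psme1 at that step was 0.02, and that of Psmb5, Psmb6 and Psmb7 was -0.47. The difference of the medians, 0.49 with a spread of 0.25 between replicates (SD), was described and not tested. In the other 5 comparisons the same difference lay between -0.14 and 0.17. Without 1 array at a time it ran from 0.26 to 0.69 at 72 h, which overlaps with -0.14 to 0.40 between the 168 h sorts and with -0.05 to 0.37 for the 168 h Ly-6B- against resident macrophages. None of the 4 inducible genes passed the test at 72 h, and of the constitutive 3 only Psmb5 did. With a replicate block, Psmb9 was called higher and Psmb6 and Psmb7 lower, as given below.

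Psmb9, the subunit that replaces Psmb6 in the immunoproteasome, read 2015, 1946 and 3124 at 18 h and 2576, 3522 and 4407 at 72 h. The 72 h arrays tended higher but overlapped with replicate 3 of 18 h, and the change was 0.57 ± 0.28 (adjusted p = 0.14). Its constitutive counterpart Psmb6 read 4471, 3536 and 5392 at 18 h and 3312, 3274 and 3847 at 72 h. These groups overlapped as well (-0.34 ± 0.14, adjusted p = 0.072), and without 18 h replicate 2 the adjusted p was 0.011. Psmb7, the constitutive trypsin-like site, read 4965, 4857 and 2696 at 18 h and 2586, 3301 and 1673 at 72 h (-0.73 ± 0.32, adjusted p = 0.092). Here replicate 3 was far below replicates 1 and 2 in both groups. Without 18 h replicate 3 the adjusted p was 0.029, and without 72 h replicate 2 it was 0.049.

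Psmb8, the chymotrypsin-like site of the immunoproteasome, showed no called change in the 6 comparisons. It read 2504, 2653 and 4104 at 18 h and 1997, 2874 and 3912 at 72 h (-0.09 ± 0.30, adjusted p = 0.86). The arrays of these groups cover nearly the same range. Its group means ran from 2557 ± 791 in resident macrophages to 3684 ± 601 at 4 h (SD, n = 3). Psme1, the alpha subunit of PA28, was likewise never called, with group means from 3053 ± 588 in resident macrophages to 4626 ± 549 at 4 h.

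**Figure D4:**
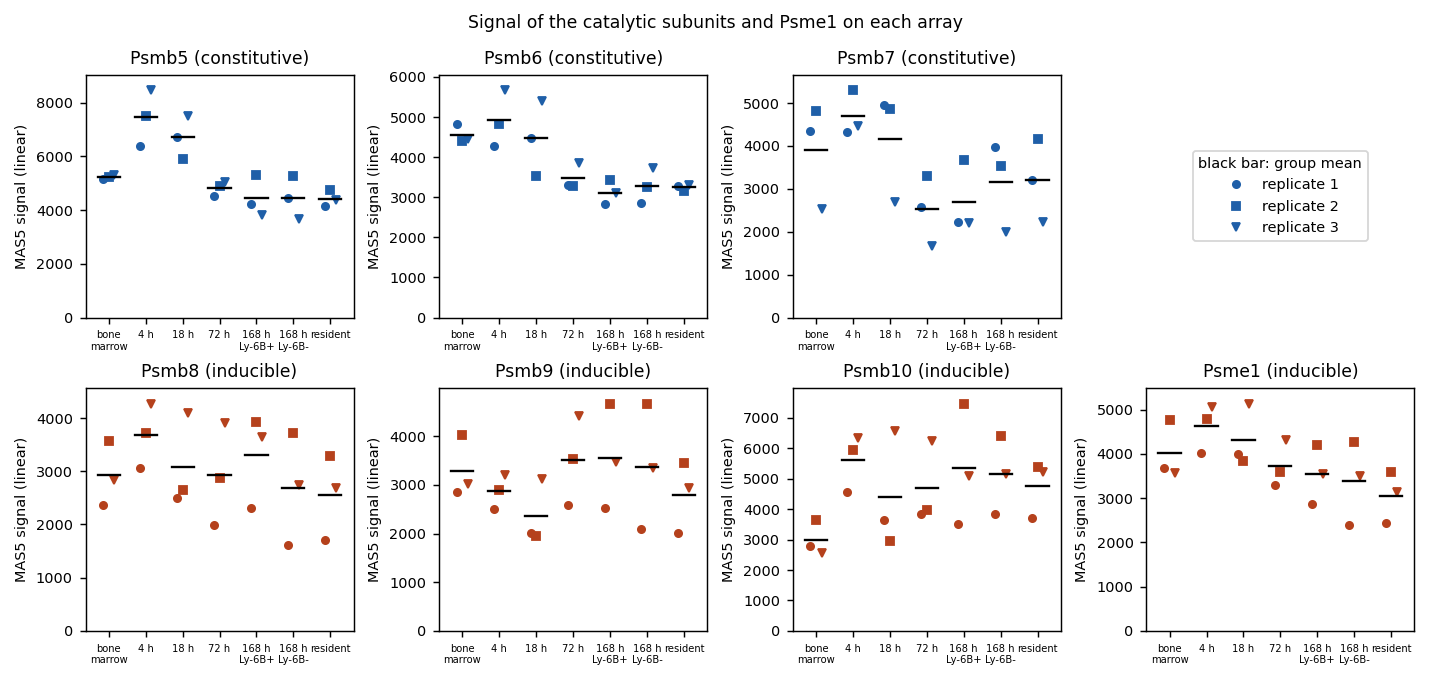
Each panel gives the deposited signal of 1 gene (linear scale from 0) on the 3 arrays of each of the 7 groups, with symbols for the replicate numbers and black bars for group means. The group means of Psmb5 and Psmb6 are lower from 72 h on than at 18 h, while for Psmb8, Psmb9 and Psmb10 the circles of replicate 1 are low in most groups.

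Each inducible subunit was then set over the constitutive subunit it replaces, on the log2 scale and relative to the bone marrow mean, which removes the affinity of the probe sets. Psmb9 over Psmb6 was -0.66, -0.37 and -0.30 at 18 h and 0.12, 0.59 and 0.68 at 72 h. Every 72 h array was above every 18 h array, and the means differed by 0.91. The mean ratio was 0.63 ± 0.30 for the 168 h Ly-6B+ sort, 0.45 ± 0.49 for the 168 h Ly-6B- sort and 0.23 ± 0.42 for resident macrophages (SD, n = 3), with overlapping ranges.

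Psmb10 over Psmb7 was higher than in bone marrow at 4 h (0.42, 0.51 and 0.85 against -0.29, -0.06 and 0.36) and in resident macrophages (0.55, 0.71 and 1.56). Neither overlapped with bone marrow. At 18 h and 72 h this ratio was spread widely, at 0.38 ± 1.08 and 1.25 ± 0.86, and the groups overlapped. Psmb8 over Psmb5 overlapped in all 6 comparisons, with group means from -0.29 at 18 h to 0.40 in 168 h Ly-6B+ macrophages. The ratios were described without a test.

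**Figure D5:**
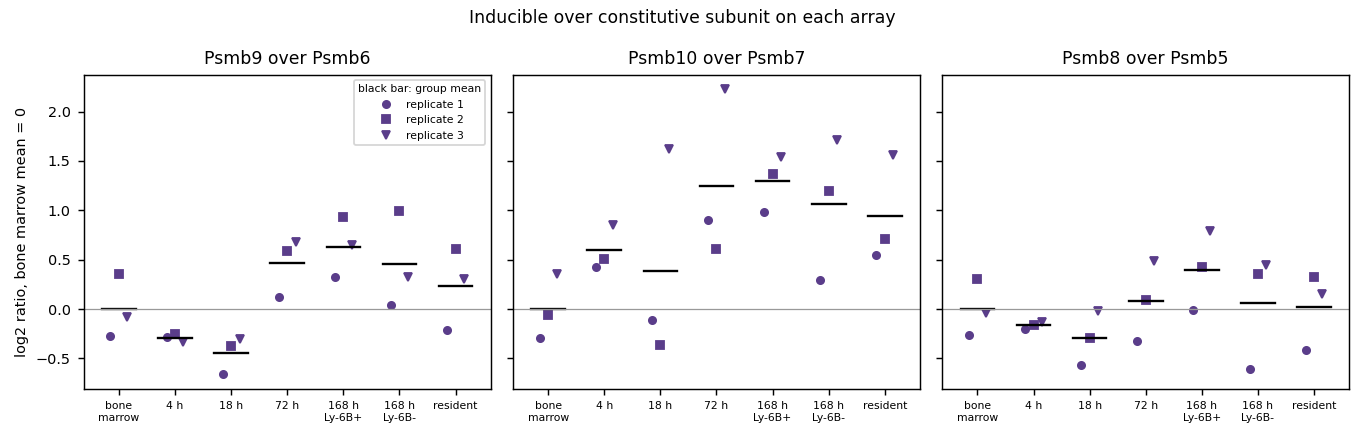
The panels give the log2 ratio of an inducible subunit over the constitutive one it replaces, on each array, with the bone marrow mean set to 0 and black bars for group means. Psmb9 over Psmb6 lies under 0 on all arrays at 4 h and 18 h and above 0 on all arrays at 72 h and 168 h.

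The spread of the inducible genes followed the replicate number. Within its group, replicate 1 was the lowest array for Psmb8 in 7 of 7 groups, for Psmb9 in 6 and for Psmb10 and Psme1 in 5. For Psmb7 replicate 3 was the lowest in 6 groups. Over all 48 members, 18 had 1 replicate number lowest or highest in at least 6 of 7 groups, which was so for 20% of all genes tested. The 3'/5' ratio of Actb was lowest in replicate 2 in 7 of 7 groups. Its part in the spread was not tested.

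Promoter windows are shown for those of the catalytic subunits and Psme1 that hold 1 of the 4 searched patterns. The window of Psmb10 held none of them, and no window of Psmb7 was used here. Windows are those of RefSeq on GRCm38.p6: Psmb5 chr14:54617946-54618245, minus strand; Psmb6 chr11:70525107-70525406, plus strand; Psmb8 chr17:34197945-34198244, plus strand; Psmb9 chr17:34187281-34187580, minus strand; Psme1 chr14:55578244-55578543, plus strand. Each has 250 bases before and 50 after the start. Capitals mark the matches on either strand.
Psmb5: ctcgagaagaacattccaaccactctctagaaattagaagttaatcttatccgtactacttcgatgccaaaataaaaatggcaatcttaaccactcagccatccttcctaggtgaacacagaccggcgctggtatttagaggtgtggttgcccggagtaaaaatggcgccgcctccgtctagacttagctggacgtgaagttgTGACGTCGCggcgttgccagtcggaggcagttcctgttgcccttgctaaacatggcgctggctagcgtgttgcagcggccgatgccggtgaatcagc
Psmb6: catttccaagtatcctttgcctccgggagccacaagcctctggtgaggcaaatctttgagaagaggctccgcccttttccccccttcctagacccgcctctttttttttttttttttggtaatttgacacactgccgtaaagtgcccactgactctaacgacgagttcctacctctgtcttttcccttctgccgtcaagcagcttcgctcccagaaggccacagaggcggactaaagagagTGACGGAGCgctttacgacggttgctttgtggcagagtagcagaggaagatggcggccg
Psmb8: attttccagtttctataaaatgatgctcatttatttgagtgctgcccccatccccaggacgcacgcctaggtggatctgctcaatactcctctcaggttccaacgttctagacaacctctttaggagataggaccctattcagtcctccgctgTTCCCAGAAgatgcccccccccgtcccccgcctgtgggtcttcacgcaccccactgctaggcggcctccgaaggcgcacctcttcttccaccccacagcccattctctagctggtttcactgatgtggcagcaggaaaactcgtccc
Psmb9: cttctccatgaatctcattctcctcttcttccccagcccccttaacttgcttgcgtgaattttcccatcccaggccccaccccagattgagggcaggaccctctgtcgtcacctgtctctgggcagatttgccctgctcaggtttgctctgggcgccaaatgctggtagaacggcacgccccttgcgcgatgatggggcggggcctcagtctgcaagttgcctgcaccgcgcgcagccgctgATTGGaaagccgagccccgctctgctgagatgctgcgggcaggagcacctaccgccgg
Psme1: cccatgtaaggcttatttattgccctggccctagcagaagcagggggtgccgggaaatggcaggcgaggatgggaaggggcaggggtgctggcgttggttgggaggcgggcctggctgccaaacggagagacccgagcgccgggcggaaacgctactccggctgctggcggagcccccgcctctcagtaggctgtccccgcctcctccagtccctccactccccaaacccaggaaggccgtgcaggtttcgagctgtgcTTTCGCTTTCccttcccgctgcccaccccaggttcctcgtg
In Psmb5 (-47 to -39) and Psmb6 (-9 to -1) the capitals are TGACNNNGC, the core of the antioxidant response element, held by 6 of 41 member windows and 12.4% of all windows. In Psmb8 (-97 to -89) they are TTCNNNGAA, the gamma-activated site core of STAT proteins, held by 3 of 41 and 8.3%. In Psme1 (10 to 19, reverse strand) they are GAAA, any 2 bases and GAAA, the core of the interferon-stimulated response element, held by 5 of 41 and 3.44%. In Psmb9 they are CCAAT on the reverse strand (-8 to -4). Psmb9 starts 225 bases from the first base of Tap1, the peptide transporter gene on the opposite strand. None of the patterns overlaps another in these 5 windows.

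The longer comparisons gave few differences among late macrophages. Between the 168 h Ly-6B+ and Ly-6B- macrophages, limma called 0 of 46 proteasome genes, and at an unadjusted p under 0.05 it gave 2 higher and 0 lower, where 9.9% and 10.8% of all genes did. Psma7 was called without Ly-6B- replicate 2 (0.59 ± 0.17, adjusted p = 0.042, against 0.38 and 0.22 with it). Between 168 h Ly-6B- and resident macrophages, 0 of 46 were called, and at an unadjusted p under 0.05 there were 0 higher and 2 lower (2.05% and 1.5% of all genes). Changes there ran from -0.40 to 0.22. Psmb8, Psmb9 and Psmb10 differed between the 168 h sorts by 0.34 ± 0.30, 0.11 ± 0.28 and 0.02 ± 0.29.

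Resident macrophages set against bone marrow monocytes, the naive groups, were lower in 16 proteasome genes and higher in 2. Of all genes tested, 22.2% were called lower and 25.3% higher. Lid subunits Psmd14, Psmd8 and Psmd13 were the largest falls (-1.05, -0.86 and -0.68). Psmd8 read 3682, 4079 and 3100 in bone marrow and 1835, 2178 and 1918 in resident macrophages, and Psmd13 2147, 2088 and 2122 against 1174, 1417 and 1364. Neither overlapped (adjusted p = 0.00029 and 0.0012). Of the constitutive catalytic genes, Psmb6 fell (4831, 4404 and 4447 to 3288, 3162 and 3313; -0.48 ± 0.14, adjusted p = 0.0073). Psmg1 rose from 724 ± 97.7 to 1089 ± 89.0 (SD, n = 3; 0.59 ± 0.16, adjusted p = 0.0048). Probe sets of a gene did not always move together here. Psmc6 was called lower at -0.48, while its further probe sets had changes of 0.49 and 0.25, untested. For Psmd13 the further ones gave -0.54, -0.14 and -0.39. Psmf1 was not called (0.0003), and its further probe sets had changes of 0.94, 1.01 and 1.34, untested. Without bone marrow replicate 3, or without resident replicate 1, the count over all 48 members fell from 17 lower to 11. Neutrophil and B cell markers were high in the bone marrow group, as given above, and their part was not tested.

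Partners of the proteasome outside the symbol rule were looked at next. Of 18 listed, 13 were tested, and at 72 h against 18 h all 13 had a negative change, as had 5797 of all 12169 genes. Of the 13, 2 passed the test, a share near the 13% of all genes called lower. Pomp, the maturation protein of the core, read 3935, 3891 and 4768 at 18 h and 2120, 2652 and 3103 at 72 h (-0.69 ± 0.23, adjusted p = 0.025). Every 72 h array was below every 18 h array. Rad23b, a shuttle for ubiquitylated proteins, was lower by 0.63. Uchl5, a deubiquitinase bound to the cap, was lower at 4 h (-1.52 ± 0.17, adjusted p = 1.6e-07).

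Genes of MHC class I peptide loading rose in 5 of 12 cases at 4 h and fell in none, where 16.5% of all genes rose and 30.1% fell. For Nlrc5, the class I transactivator, the bone marrow arrays gave 890, 1567 and 927 and the 4 h arrays 3852, 2834 and 3301 (1.59 ± 0.19, adjusted p = 8.5e-07). The peptide transporter gene Tap1 went from 2118, 2665 and 1866 to 3352, 3300 and 3129, without overlap and without passing the test (0.57 ± 0.24, adjusted p = 0.058). At 72 h against 18 h, 4 of 12 rose and none fell (17.5% and 13% of all genes), with Tapbpl (0.87) and Tapbp (0.75), genes of peptide editing, as the largest. In resident macrophages against bone marrow 8 rose and 1, Tap1, fell (25.3% and 22.2% of all genes).

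Of 16 transcription factors and interferon receptors known to act on proteasome genes, 14 were tested. At 4 h 6 rose and 2 fell, with 16.5% and 30.1% of all genes. Irf1, an interferon-induced activator of immunoproteasome genes, went from 3570, 4493 and 4061 to 16428, 13805 and 12233 (1.80 ± 0.24, adjusted p = 2.1e-06), while Irf8 fell by 1.65. At 18 h 6 fell and 1 rose, with 12.5% and 27.5% of all genes. Nfe2l2, the activator that binds the antioxidant response element, went from 9853, 9810 and 11222 at 4 h to 4293, 4319 and 3028 at 18 h (-1.42 ± 0.15, adjusted p = 2.7e-07). Neither pair of groups overlapped. At 72 h against 18 h, 2 rose and 2 fell (17.5% and 13% of all genes), with Ifnar2 (mean signal 2521 to 5878) and Ifngr1 (4939 to 2853), subunits of interferon receptors, as the largest.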

How the data were processed

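Biotin-labelled RNA of 21 samples was measured on Affymetrix arrays, after 2-cycle amplification of 100 ng RNA from sorted cells, per the labels' protocols. The authors deposited linear signal intensity from MAS5 in Affymetrix Expression Console 1.2, per the submitters' processing notes. The 2% trimmed mean over 45101 probe sets was 500.0 on each array, and 0 columns were unmatched to a sample. Other array settings were not given in the sources used here.

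Probe sets with 1 symbol (34958) were kept. Those with several (932) or unlisted (9211) were left out. Signals were taken as log2(value + 15), and genes above 80.6 in at least 3 arrays were tested in R 4.3.3 with limma 3.58.1 (lmFit, eBayes with trend, 2-sided) over 7 groups, with 14 residual degrees of freedom. The script was tested on simulated data. Fold changes are on that log2 scale and understate changes of low genes. Calls used a Benjamini-Hochberg adjusted p under 0.05. The number of arrays limits the precision. P-values set a difference against the spread between arrays of the same group. That spread was pooled over the 7 groups and drawn toward the trend of all genes.

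The members and the lists by role, of partners, MHC class I loading, transcription factors, the ubiquitin pathway, later proteases and cell type markers were chosen with earlier results of these data known. Named were the catalytic genes and Psme1, per comparison the 3 largest called rises and falls among members and the 2 largest called changes in each other list, and the 10 genes most correlated with each catalytic set. Further genes named were chosen after their values were seen. Arrays of 1 replicate number deviated together for the 168 h sorts (r = 0.30, 0.28 and 0.18). The r values were also positive at 72 h against 18 h (0.11, 0.09 and 0.19). In resident macrophages against bone marrow they were 0.10, 0.05 and 0.08. At 4 h against bone marrow they were -0.01, -0.0007 and 0.05. The values in the report, those of the 168 h sorts included, come from the fit without a replicate block unless a block is named. Alternatives were another pseudocount, normalization, filter, probe set rule, weights, no trend, a replicate block, fewer groups and arrays left out. Promoter windows and figures were handled in Python 3.11.15 with matplotlib 3.10.9.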

Additional observations from a re-analysis of the deposited data

How the results depend on the processing

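Among the called changes of named members, 1 was reversed, that of Psmb3 at 4 h (0.035 with a common array median). Counts are over the 48 members. With a common array median, 28 were called higher and 2 lower at 4 h (9 and 4 as reported), and 3 higher and 8 lower at 18 h (6 and 1). The 1 lower call at 18 h, Psmd12, was 0 with quantile normalization, no filter, no trend or only the 6 arrays compared. It was also 0 with 3 arrays left out together. Those are replicate 3 of bone marrow and replicate 2 of the 4 h and of the 72 h group. At 72 h the 24 lower calls were 12 when probe sets of a gene were averaged and 15 with only the 6 arrays compared, which has fewer residual degrees of freedom. The 1 higher call at 72 h, Psmc3ip, was 0 with a filter at the 75th percentile or without the 3 arrays, and 2 with no trend. The 2 higher calls in resident macrophages were 1 with that filter. The cause was not tested. Without the 3 arrays, 17 of the 24 proteasome genes called at 72 h were kept.

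The labels number the replicates of each group 1 to 3, with no stated source of pairing. With a replicate block the lower calls at 72 h were 30 and the higher calls 2, the lower calls at 18 h were 2, and other counts stayed within 1.5 times. Calls over all 12169 genes grew as well. At 72 h the block gave 1915 lower and 2368 higher, against 1578 and 2124 without it. At 18 h it gave 1743 lower, against 1527. Psmb6 (adjusted p = 0.034) and Psmb7 (0.0022) were called lower at 72 h with the block, as were Psma4 and Psmb4. Psmb9 was called higher there (0.027), and Psmb10 was called higher in resident macrophages (0.026). At 72 h against 18 h the deviations of arrays of 1 number correlated at 0.11, 0.09 and 0.19, and each of the 6 arrays was most correlated with that of its own number. For the 168 h sorts, the block changed no call among the members.

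Leaving out 1 array at a time, calls at 18 h ran from 3 to 5 higher (3 without 18 h replicate 1) and from 0 to 1 lower, at 72 h from 0 to 1 higher (0 without 72 h replicate 2) and from 14 to 21 lower, between the 168 h sorts from 0 to 1 higher, and in resident macrophages from 11 to 15 lower. The inducible minus constitutive difference ran from -0.24 to 0.14 at 4 h, from -0.28 to -0.01 at 18 h, from 0.26 to 0.69 at 72 h, from -0.14 to 0.40 between the 168 h sorts, from -0.05 to 0.37 for Ly-6B- against resident macrophages and from -0.10 to 0.30 for resident macrophages against bone marrow. Of 29 called changes of named members, 16 were called in the same direction under every alternative run. Probe sets near the floor, such as that of Psma8, have the least signal over background.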

Other observations

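Of 18 listed genes of the ubiquitin pathway 9 were tested. At 4 h against bone marrow 5 rose and none fell (16.5% and 30.1% of all genes), among them Ube2n (0.75 ± 0.26, adjusted p = 0.021) and Ube2d3 (0.54 ± 0.11, adjusted p = 0.00035), which encode ubiquitin-conjugating enzymes. At 18 h 4 fell and 1 rose (12.5% and 27.5% of all genes), with Usp18, the protease that removes ISG15, lower by 0.77. At 72 h only Uba7 of the 9, the activating enzyme of ISG15, rose (906 to 1932 in mean signal; 1.06 ± 0.20, adjusted p = 0.00026), and 4 fell (17.5% and 13% of all genes). Among 7 tested proteases and peptidases that act after the proteasome, Cndp2, a cytosolic dipeptidase, rose at 4 h from 7882 to 21338 in mean signal (1.43 ± 0.12, adjusted p = 6.5e-09). Thop1, which cleaves short peptides, read 130 in bone marrow, 43.6 at 4 h and 225 at 18 h, with changes of -1.40 and 2.13. In that list 2 rose and 3 fell at 4 h (16.5% and 30.1% of all genes).

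The genes whose pattern over the 21 arrays was most like the mean of Psmb5, Psmb6 and Psmb7 were Pkm (r = 0.95), Ube2n (0.94), Tmem14c (0.93), Actr1a, Grb2, Arpc4, Eloc, Tmem167, Ambra1 and Shkbp1 (0.90). For Psmb8, Psmb9 and Psmb10 they were S100a13 (0.81), Fau (0.77), Lsm10, Vamp8, Pfdn5, Atp5e, Idnk, Tmem179b, Pet100 and Zbtb7a (0.73). These correlations describe the ranking, since the arrays share groups and replicate numbers.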
